A study of Mus musculus with 2 samples.

Results

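The carboxylesterases are serine hydrolases that split ester and amide bonds in drugs, insecticides and lipids, and most of them reside in the lumen of the endoplasmic reticulum. The liver holds much of the activity of this family in the body, and several mouse members are known for releasing fatty acids from stored triglyceride. The 10 genes described here are Ces1c, Ces1d, Ces1e, Ces1f, Ces1g, Ces2a, Ces2c, Ces2e, Ces3a and Ces3b. They were chosen by family with the signals and ratios of these same arrays already known, so all ratios below describe the 2 arrays and no test supports them. Of the 10, 7 had at least 1 probe set annotated to that gene alone, as had 18193 genes in all on the array, Ces3a and Ces3b shared 1 probe set, and no probe set was annotated to Ces2c in the annotation used here, so its level was not analysed here.

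The study measured liver RNA of mice on 2 single-colour Affymetrix arrays, 1 for each group. One group received antagomir-122, a chemically modified oligonucleotide complementary to miR-122, a microRNA abundant in hepatocytes. The other group received mm-antagomir-122, described in its label as scrambled. Both were given 80 mg/kg per day in 3 daily injections and sampled 24 h after the last one, and the cRNA of each array came from RNA combined from 3 livers. The strain, the age and the miR-122 level itself were not used here. Because each group is 1 pooled array, neither the spread between animals nor that between arrays is known. Of 14 hepatocyte markers 12 were above the floor described next, with summed signals of 257078 on the antagomir-122 array and 258669 on the mm-antagomir-122 array. These sums include the highest signal of each array, Apoa1 at 34477 on the antagomir-122 array and Apoa2 at 34506 on the mm-antagomir-122 array. Near that top a difference can be hidden.

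Values are MAS5 signals as deposited, in arbitrary units scaled alike on both arrays, and a ratio is the log2 of the antagomir-122 signal over the mm-antagomir-122 signal. A gene entered the comparison if a probe set had a mean log2 signal at or above the 60th percentile, a signal of 238, and was represented by its brightest probe set, which left 10003 genes. A ratio was called from 1.5-fold, or 0.58 on the log2 scale. Among genes read by several probe sets above the floor, the ratios of the 2 brightest differed with a spread per probe set of 0.28 in log2 units (SD, 3860 genes), and of 0.23 (1813 genes) among the brightest 3335 genes. That spread is the only yardstick here, and it covers disagreement between probe sets on the same 2 arrays. It holds no variation between animals or arrays, so a ratio beyond it is not thereby a difference between the groups.

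All 20 annotated genes of the family lie in 2 blocks on mouse chromosome 8, with no other protein-coding gene between the members of a block. The first block runs from Ces1a through Ces1h to Ces5a, and the second from Ces2a through the Ces2 genes, Ces3a and Ces3b to Ces4a. Such tandem copies share coding sequence, which bears on the readout: a probe set with the suffix _s matches transcripts of several genes, one with _x holds probes that can match other sequences, and one with _a matches alternative transcripts of 1 gene. Of the 10 probe sets of the members, 4 carry a suffix, namely the _a and _x probe sets of Ces1d, the _s probe set of Ces1f and the _s probe set shared by Ces3a and Ces3b. A member read on a suffixed probe set alone is uncertain for this reason.

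How far the copies resemble each other before their start sites is shown by the 110 bases upstream of the start of 7 family genes, taken from RefSeq on GRCm38.p6. They are Ces1c and Ces1g, picked because their ratios were nearly equal, the Ces2 genes that were measured or are members, and Ces3b. Ces1e, a member with a window and a log2 ratio of -0.16, is not printed. A link between these sequences and the ratios was not tested. Each is written 5′ to 3′ on the strand of its gene, and capitals mark the letters AACTTT.
Ces1c, chr8:93131284-93131393, minus strand: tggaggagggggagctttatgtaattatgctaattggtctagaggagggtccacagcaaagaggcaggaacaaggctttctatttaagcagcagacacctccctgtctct
Ces1g, chr8:93337210-93337319, minus strand: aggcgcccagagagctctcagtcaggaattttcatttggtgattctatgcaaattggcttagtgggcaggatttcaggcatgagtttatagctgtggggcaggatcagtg
Ces2a, chr8:104733893-104734002, plus strand: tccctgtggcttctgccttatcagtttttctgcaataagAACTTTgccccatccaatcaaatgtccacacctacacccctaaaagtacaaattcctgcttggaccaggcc
Ces2c, chr8:104846958-104847067, plus strand: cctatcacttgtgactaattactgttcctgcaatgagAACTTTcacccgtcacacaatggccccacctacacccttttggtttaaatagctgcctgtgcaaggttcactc
Ces2e, chr8:104926150-104926259, plus strand: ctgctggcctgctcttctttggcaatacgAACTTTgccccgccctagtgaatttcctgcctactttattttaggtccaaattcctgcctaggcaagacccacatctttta
Ces2g, chr8:104961608-104961717, plus strand: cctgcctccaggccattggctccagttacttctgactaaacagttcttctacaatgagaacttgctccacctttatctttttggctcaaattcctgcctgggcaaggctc
Ces3b, chr8:105083645-105083754, plus strand: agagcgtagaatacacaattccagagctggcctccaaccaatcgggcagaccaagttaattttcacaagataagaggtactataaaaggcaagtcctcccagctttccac

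Promoter windows of 300 bases were found for 7 of the 10 members and 15 family genes in all. Aligned end to end, the windows of Ces2a and Ces2c were 65.4% identical, the highest value among 15 pairs of Ces2 genes, whose median was 54.3%. The 15 pairs of Ces1 genes had a median of 50.3%, and Ces1c and Ces1g were 51.3% identical. Ces1b and Ces1c, at 81.6%, were the most alike of all pairs in the family. Pairs from different clusters had a median of 46.7% (43.3% to 51.4%, 75 pairs). The letters AACTTT were noticed in the Ces2 sequences first and then searched on both strands of the 250 bases upstream. They were found in Ces2a, Ces2c and Ces2e and in no other of the 7 members with a window, against 12.4% of 32851 windows of all genes. In those 3 genes they began 71, 73 and 81 bases before the start. Outside the members, Ces2f had them 93 bases before the start, while Ces2g and Ces2h lacked them. Because the letters were taken from these sequences, their presence there was fixed in advance and the share of all windows is no test of it.

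Of the other motifs searched the same way, the CCAAT box (CCAAT) was in 5 of the 7 members and in 33.8% of all windows. The TATA box (TATAAA) was in Ces3b on the strand of the gene, in Ces1g on the opposite strand only, and in 12.4% of all windows. The HNF1 half-site (GTTAAT), named for a transcription factor of hepatocytes, was in Ces3b and in 6.43% of all windows. The nuclear receptor half-site (AGGTCA) was in Ces2a and in 14.0% of all windows. No match of one motif overlapped a match of another in these members. A match describes letters in a window, and binding was not measured.

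The carboxylesterase members differed little between the arrays. None of the 7 members above the floor was 1.5-fold higher or 1.5-fold lower in the antagomir-122 pool, against 5.12% of 10003 genes that were higher and 2.62% that were lower. Among the brightest 3335 genes, 2.55% were higher and 1.05% lower. A count of 0 of 7 lies near what those shares give and is not a result about the members. The median log2 ratio of the 7 members was 0.09, with 4 above 0 and 3 below. For all genes above the floor the median was 0.00, and for the brightest 3335 it was -0.05. Both signals of every member lay above the floor, so none was kept through one array alone.

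**Figure D1:**
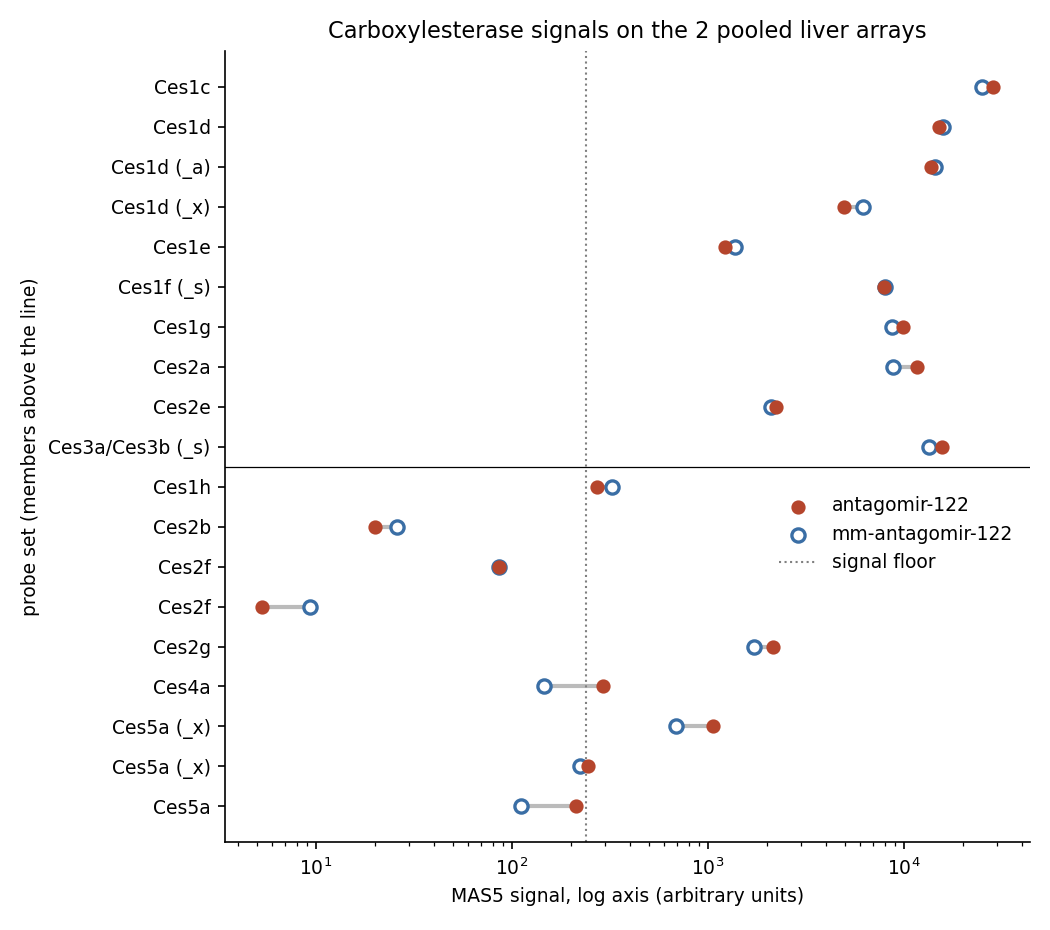
Deposited MAS5 signal (log axis) of every probe set annotated to a carboxylesterase gene, filled for the antagomir-122 array and open for the mm-antagomir-122 array, 1 array each; suffixes of probe sets are in brackets and the dotted line is the floor of 238. The 10 probe sets of the members lie between 1225 and 28619 over both arrays, with close pairs of points, while those of Ces2b, Ces2f and Ces4a, and 2 of Ces5a, lie around or under the floor.

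In the Ces1 cluster the ratios lay on both sides of 0, with a median of -0.01 over 5 genes. Ces1c, the esterase that mouse liver secretes into plasma, had a signal of 28619 on the antagomir-122 array, against 24974 on the mm-antagomir-122 array (probe set 1416913_at). This was 1.15-fold higher, a log2 ratio of 0.20, and less than the spread between probe sets. The highest signals on the arrays were 34477 on the antagomir-122 array and 34506 on the mm-antagomir-122 array, and near that top a difference can be hidden.

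Ces1g, a lipid hydrolase whose loss is known to raise liver triglyceride in mice, had signals of 9936 on the antagomir-122 array and 8717 on the mm-antagomir-122 array (1449486_at). It was 1.14-fold higher, with a log2 ratio of 0.19, close to that of Ces1c. Ces1c and Ces1g were the 2 members of this cluster above 0, and 50.2% and 52.1% of all genes above the floor had a ratio at least as far from 0.

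Ces1d is the triacylglycerol hydrolase of mouse liver, known for mobilising stored triglyceride for secretion in lipoproteins. Its brightest probe set (1449081_at, no suffix) had 15130 on the antagomir-122 array, against 15843 on the mm-antagomir-122 array, 1.05-fold lower. The _a probe set (1435370_a_at) had 13808 on the antagomir-122 array and 14519 on the mm-antagomir-122 array, also 1.05-fold lower. The _x probe set (1435371_x_at) had 4968 on the antagomir-122 array and 6171 on the mm-antagomir-122 array, 1.24-fold lower.

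All 3 probe sets of Ces1d were thus lower as deposited, at log2 ratios of -0.07, -0.07 and -0.31. They spanned 0.25 on the log2 scale, with a mean of -0.15. Ces1d was the only member with several probe sets, so the ratios of the other members rest on 1 probe set each.

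Ces1e encodes egasyn, which holds β-glucuronidase in the endoplasmic reticulum of mouse liver. It had signals of 1225 on the antagomir-122 array and 1371 on the mm-antagomir-122 array (1419510_at), 1.12-fold lower with a log2 ratio of -0.16. This was the lowest ratio among the brightest probe sets of the members, and 57.8% of all genes had a ratio at least as far from 0. Gusb, the gene of β-glucuronidase, had signals of 1106 on the antagomir-122 array and 1057 on the mm-antagomir-122 array, a log2 ratio of 0.07, with -0.09 on its other probe set.

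Ces1f, also listed as triacylglycerol hydrolase 2, had 7908 on the antagomir-122 array and 7990 on the mm-antagomir-122 array (1424266_s_at). With a log2 ratio of -0.01 it was the member nearest to 0. Its probe set carries the suffix _s, so the signal may include transcripts of a neighbouring copy.

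In the Ces2 cluster both measured members lay above 0, as did 5034 of the 10003 genes and 1347 of the brightest 3335. The highest ratio of all 7 members was that of Ces2a. Ces2a, an enzyme of the endoplasmic reticulum that hydrolyses pyrethroid insecticides, had a signal of 11722 on the antagomir-122 array, against 8789 on the mm-antagomir-122 array (1449375_at, no suffix). It was 1.33-fold higher, a log2 ratio of 0.42, which exceeded the spread between probe sets but not the 1.5-fold threshold. Of the 10003 genes, 1811 (18.1%) had a ratio at least as far from 0, as had 10.4% of the brightest 3335.

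Ces2e, likewise known as a pyrethroid hydrolase, had signals of 2236 on the antagomir-122 array and 2105 on the mm-antagomir-122 array (1427137_at). It was 1.06-fold higher, with a log2 ratio of 0.09. The 2 Ces2 members thus differed from each other by more than Ces2e differed from 0, and their median of 0.25 is the midpoint of 2 values. Ces2c, an acylcarnitine and acylglycerol hydrolase whose promoter window is the one most like that of Ces2a, has no value here.

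The probe set shared by Ces3a and Ces3b, liver esterases once listed together as esterase 31, had 15650 on the antagomir-122 array and 13470 on the mm-antagomir-122 array (1451600_s_at). Its log2 ratio was 0.22, or 1.16-fold higher, and was less than the spread between probe sets. The signal belongs to both genes, so neither has a value of its own and no median of single-gene probe sets exists for the Ces3 cluster. Counted once beside the 7 members, it brought their median to 0.14.

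Set side by side, the clusters stood at medians of 0.25 for Ces2 and -0.01 for Ces1, a difference of 0.27 on the log2 scale. The Ces3 probe set was 0.23 above the Ces1 median. These differences rest on 5 genes, 2 genes and 1 shared probe set, the ranges of Ces1 (-0.16 to 0.20) and Ces2 (0.09 to 0.42) overlapped, and with 1 array a group no test of them could be made. In bulk liver RNA, fewer cells of a type and less RNA per cell cannot be told apart.

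**Figure D2:**
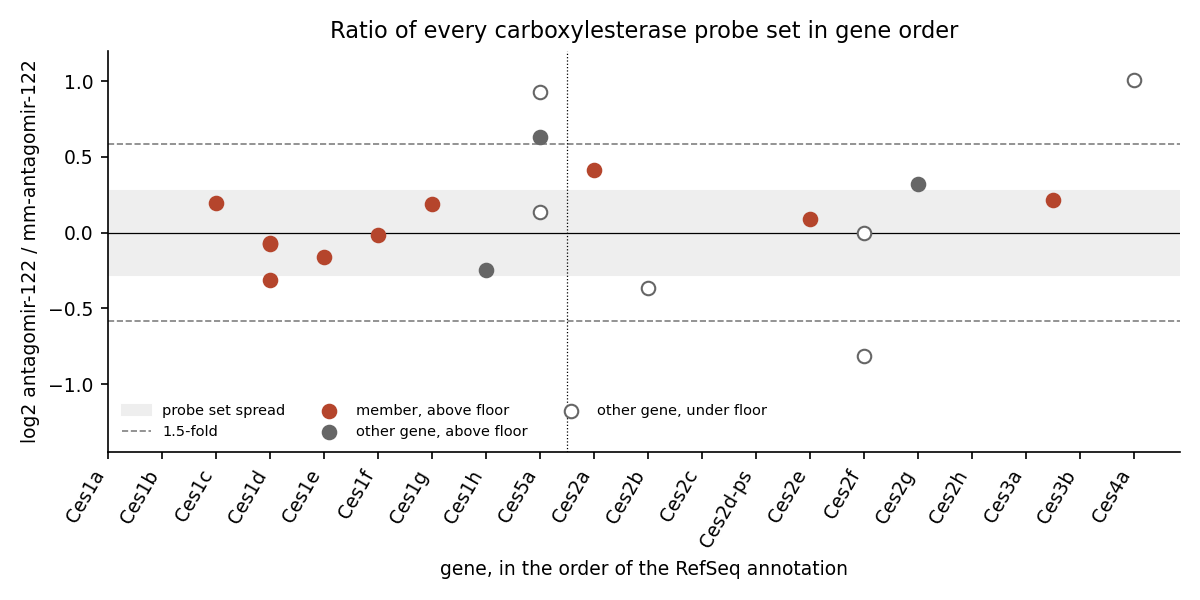
Log2 ratio of antagomir-122 over mm-antagomir-122 signal for every carboxylesterase probe set, with genes in RefSeq order and the dotted line between the 2 blocks; the grey band is the probe set spread of 0.28 on either side of 0 and the dashed lines are 1.5-fold. Ces2a and the _x probe set of Ces1d are the members' points outside the band, and no member reaches a dashed line.

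Of the 9 other carboxylesterase genes, 6 had a probe set of their own and 3 passed the floor. Ces2g had signals of 2164 on the antagomir-122 array and 1731 on the mm-antagomir-122 array, 1.25-fold higher with a log2 ratio of 0.32. The 3 Ces2 genes above the floor thus lay above 0, as did 5034 of all 10003 genes and 1347 of the brightest 3335. A count of 3 genes is not a result about the cluster. Ces1h had signals of 272.9 on the antagomir-122 array and 323.4 on the mm-antagomir-122 array, close to the floor, with a log2 ratio of -0.24. Ces5a, known as cauxin from cat urine, had 1060 on the antagomir-122 array, against 686.1 on the mm-antagomir-122 array, on its brightest probe set.

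This put Ces5a 1.55-fold higher, the only carboxylesterase gene above the floor past 1.5-fold, on a probe set with the suffix _x. Of all 10003 genes above the floor, 5.12% were at least 1.5-fold higher. A count of 1 gene is not a result about the family. With median centring the log2 ratio of Ces5a was 0.57, short of that threshold. Its other probe sets were under the floor by their mean, at 244.3 on the antagomir-122 array and 222.5 on the mm-antagomir-122 array for the second _x probe set, and at 211.8 on the antagomir-122 array and 111.5 on the mm-antagomir-122 array for the one without a suffix. Ces4a had 291.9 on the antagomir-122 array and 145.4 on the mm-antagomir-122 array, the second value being under the floor, so it was at least 1.23-fold higher against the floor. Ces2b and Ces2f had no signal above 85.6 on either array, and no fold is given for them.

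**Figure D3:**
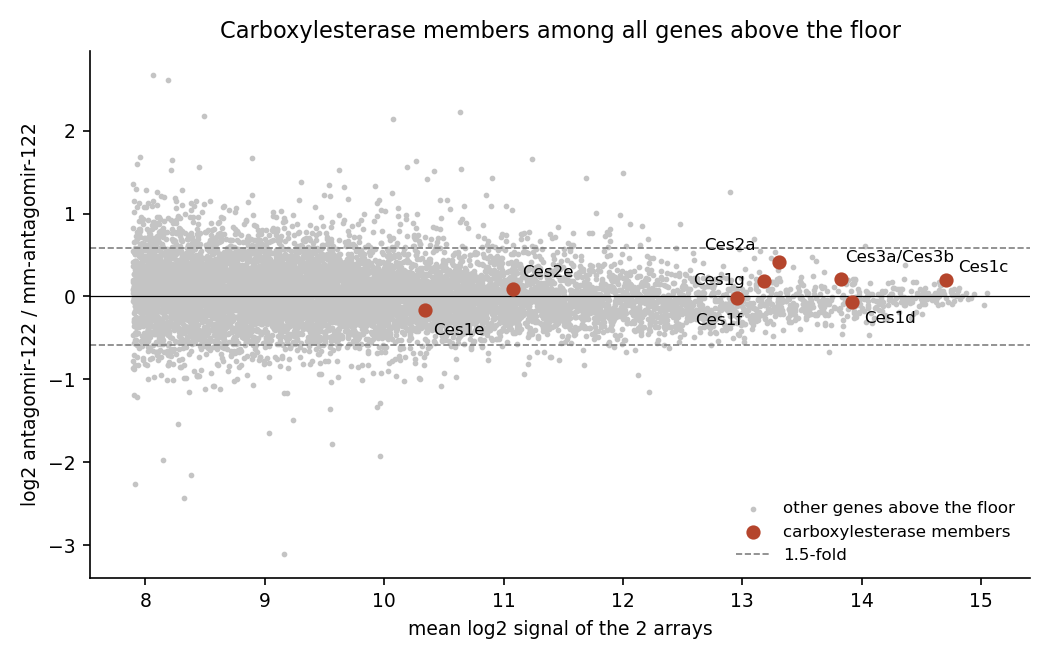
Log2 ratio of antagomir-122 over mm-antagomir-122 signal against the mean log2 signal for the 10003 genes above the floor (grey, brightest probe set of each gene), with the 7 members and the probe set shared by Ces3a and Ces3b in red and 1.5-fold as dashed lines. The members lie inside the dashed lines, Ces2a highest at 0.42 and Ces1e lowest at -0.16.

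Directions depended on the scaling for the members nearest to 0. The 18 probe sets for hybridization controls, which repeat a few bacterial and phage transcripts spiked into the sample, had a median log2 ratio of -0.27, so scaling on them added 0.27 to the ratio of every gene. After that scaling all 7 members lay above 0, Ces1d at 0.21, Ces1e at 0.11 and Ces1f at 0.26 included, and Ces2a reached 0.69. It was then past 1.5-fold, as 1 of 7 members, against 16.9% of all genes that were past it upwards after the same scaling. With quantile normalization Ces2a had 0.51 and with loess correction 0.49, both under 1.5-fold, while Ces1f turned to 0.10 and 0.05, and Ces1d had 0.00 and 0.02, in the order of those 2 scalings.

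**Figure D4:**
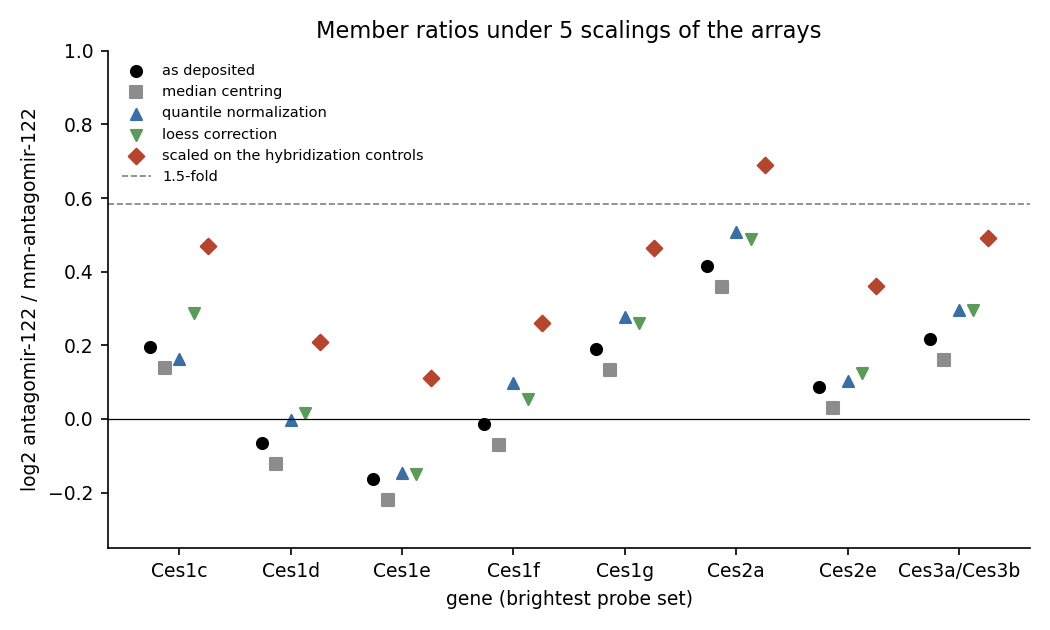
Log2 ratio of antagomir-122 over mm-antagomir-122 for each member's brightest probe set and the shared Ces3 probe set as deposited and under 4 other scalings, with 1.5-fold as the dashed line. Ces2a stays highest under each of the 5 scalings and passes the dashed line when scaled on the hybridization controls (0.69).

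Genes tied to the same pathways were read from lists of general knowledge. Of 25 other ester hydrolases, 20 were above the floor, with a median log2 ratio of -0.07. Beside 5.12% of all 10003 genes higher and 2.62% lower, none of these 20 was past 1.5-fold either way on the brightest probe set. Those farthest from 0 on that probe set were Pon2, a lactonase, at -0.57 (signals 1293 on the antagomir-122 array and 1913 on the mm-antagomir-122 array), and Lpl, lipoprotein lipase, at 0.51 (2553 on the antagomir-122 array and 1792 on the mm-antagomir-122 array). The other probe set of Lpl had 0.04, and that of Pon2 had -0.32. Bche, butyrylcholinesterase, had -0.20 on its brightest probe set and -0.76, past 1.5-fold, on the lowest of its 3.

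Of 14 genes of lipid droplets and lipoprotein assembly, 11 were above the floor, with a median of 0.06. One was past 1.5-fold: G0s2, an inhibitor of adipose triglyceride lipase, had signals of 4963 on the antagomir-122 array and 2473 on the mm-antagomir-122 array, 2.01-fold higher on its 1 probe set. Of 18 receptors and response genes of xenobiotics, which include known regulators of carboxylesterase genes, 17 were above the floor, with a median of 0.09. One was past 1.5-fold, namely Cyp2b10, a response gene of the receptor CAR, at 0.63 on a probe set with the suffix _s, the lowest of its 3. In each of these 2 lists the 1 gene past 1.5-fold stands beside 5.12% of all 10003 genes that were higher. Such a count is not a result about the list. Of the retrieval receptors that return proteins to the endoplasmic reticulum, Kdelr1 had -0.11 and Kdelr2 0.20 as log2 ratios, with -0.03 on the other probe set of Kdelr2.

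Most markers of macrophages, neutrophils and lymphocytes were higher on the antagomir-122 array. All 12 macrophage markers above the floor, of 13 listed, had a ratio above 0, beside 5034 of all 10003 genes. The summed signals of these markers were 73842 on the antagomir-122 array and 55902 on the mm-antagomir-122 array. For 6 of 9 neutrophil markers the sums were 8013 on the antagomir-122 array and 2451 on the mm-antagomir-122 array, with Elane alone below 0 at -0.31. For 6 of 10 lymphocyte markers they were 6526 on the antagomir-122 array and 3964 on the mm-antagomir-122 array. Of these lymphocyte sums, Ighm made up 2785 and 1309, and its 4 probe sets had ratios from 0.08 to 1.09. The neutrophil markers Ltf (197.8) and Mpo (164.2) and the lymphocyte marker Cd79a (207.5) were under the floor on the mm-antagomir-122 array. They passed it through the antagomir-122 array alone, so their direction was set by the floor and adds nothing to these counts. The sums above include their signals and are limited in the same way. Hepatocyte markers had a median log2 ratio of -0.03. Beside 2.62% of all 10003 genes, 1 of the 12, Ass1, was at least 1.5-fold lower (-1.12). Its 1 probe set above the floor was dim, with 245.3 on the antagomir-122 array, close to the floor, and 531.4 on the mm-antagomir-122 array. The next dimmest hepatocyte marker, Hnf4a, had 7417.7 on the antagomir-122 array and 7800.6 on the mm-antagomir-122 array. The ratio of Ass1 is therefore uncertain. The 11 of 12 endothelial markers above the floor lay on both sides of 0, 5 above and 6 below, with a median of -0.24. Tek (-0.73) and Emcn (-0.59), 2 of the 11, were at least 1.5-fold lower, beside 2.62% of all 10003 genes. Stab1 (0.28), Lyve1 (0.23, with -0.11 on its other probe set) and Stab2 (0.21) were the highest. Flt1 (-0.24), whose ratio is that median of -0.24, had 232.6 on the antagomir-122 array, under the floor, and 275.4 on the mm-antagomir-122 array. It passed the floor through the mm-antagomir-122 array alone, so its direction was set by the floor. Flt1 therefore adds nothing to the count below 0, and the median that rests on it is uncertain. The 2 erythroid markers above the floor had a median of -0.13. Of 7 adipocyte markers, 1 was above the floor, and of 7 enterocyte markers, 2. The part of other cells in the carboxylesterase ratios was not tested.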

How the data were processed

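Liver cRNA, made from RNA combined from 3 livers per group per the labels' protocols, was measured on 2 arrays. The authors deposited linear signal intensities for 45101 probe sets, which the submitters' processing notes credit to MAS5, with no version given. The 2% trimmed mean was the same on both arrays, so the deposited intensities had been scaled. No detection calls or probe-level values were used. Genes were named from the platform annotation, and gene identifiers were matched to RefSeq symbols (GRCm38.p6) for 34741 of 34945 single-gene probe sets (0 changed). Probe sets of several genes (932) or none (9160) gave no gene value.

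Ratios were computed in Python 3.11.15 with numpy 2.4.6, pandas 2.3.3 and statsmodels 0.14.6 (loess span 0.3), with no pseudocount. The calculation was tested on simulated data. Promoter windows were aligned with Biopython 1.88. With 1 array per group no test was run, and the number of arrays limits the precision. The members and gene lists were chosen with earlier results of these data known. All members were named, with every other measured carboxylesterase, and from the other pathway lists those past 1.5-fold on the brightest probe set or, where none was, the 2 farthest from 0. Cell type markers were summed by list. Bche and the markers named singly were chosen after their values were seen. No gene was added for a like pattern, since 2 arrays give 1 ratio. Among the members, Ces1c and Ces1g were picked for the printed promoters by their nearly equal ratios. Alternatives were 4 other scalings, 3 other floors (the 40th and 80th percentiles, or none), averaging the probe sets of a gene, dropping suffixed probe sets, adding 37.8 to each signal as a pseudocount, raising low signals to the floor, and thresholds of 1.4-fold and 2-fold. Counting the shared Ces3 probe set, and all carboxylesterase genes, were added after seeing the data.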

Additional observations from a re-analysis of the deposited data

How the results depend on the processing

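The number of members at least 1.5-fold higher, 0 as deposited, was 1 (Ces2a) when scaled on the hybridization controls, and 0 under every other alternative run, thresholds of 1.4-fold and 2-fold included. The number at least 1.5-fold lower was 0 under all of them. Over all alternatives the median log2 ratio of the members ran from 0.03 to 0.36, that of the Ces1 members from -0.07 to 0.26 and that of the Ces2 members from 0.19 to 0.53. The shared Ces3 probe set ran from 0.16 to 0.49. The Ces1 median changed sign with quantile normalization (0.10), loess correction (0.05), scaling on the hybridization controls (0.26) and without suffixed probe sets (0.06, 4 genes). With every carboxylesterase gene above the floor and the shared probe set, 11 values in all, the median was 0.19. Over all genes, 512 were higher and 262 lower as deposited, 400 and 375 with median centring, 1693 and 63 when scaled on the hybridization controls, 1163 and 531 with the floor at the 40th percentile, 184 and 98 at the 80th, and 2766 and 1714 with none. No paired analysis was possible because each group has 1 array, and no array could be left out. No detection calls were used, so a dim signal cannot be told from background.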
